A study of Mus musculus with 19 samples.

Results

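The brain endothelial genes described here are 39 genes of the cells that line the capillaries of the brain, chosen by name as genes known from brain endothelium, with earlier results of these data in view, and found by symbol among the 60567 listed genes of the deposited table. All 39 were found, and in the GENCODE M21 annotation each overlapped its deposited position on the mm10 mouse genome. They were grouped by role into 9 genes of transport across the barrier, 8 genes of cell junctions and the cell surface, 12 genes of receptors and signalling, 3 transcription factors and 7 other genes that mark these cells. The study followed the JAK2-STAT3 pathway in reactive astrocytes of mice that model Alzheimer's disease. RNAseq was run on cells of the hippocampus of male 9 month-old C57bl6 mice, dissociated with papain, depleted of myelin and sorted by FACS on GFP. Viral vectors (AAV of serotype 9) had been injected in the CA1 region months earlier, with a promoter derived from that of *GFAP*, so that GFP marks infected astrocytes. Each hippocampus was sorted independently, and for the GFP+ groups the number of mice stated equals the number of samples. According to the methods both GFP+ and GFP- cells were typically collected for each sample, so some of both may come from the same mice. Which mice gave the GFP- samples is not stated, and they were treated as independent of the WT-GFP astrocytes, without pairing.

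WT-GFP mice are littermates without transgenes that received the GFP vector alone, and gave 7 samples of GFP+ astrocytes and 3 samples of GFP- cells, which according to the methods include microglia, neurons, oligodendrocyte precursor cells and astrocytes that were not infected. APP-GFP mice (4 samples of GFP+ astrocytes) received the same GFP vector and are transgenic mice that model Alzheimer's disease, with transgenes that include a mouse/human *App* with the Swedish mutations. APP-SOCS3 mice (5 samples of GFP+ astrocytes) carry the same transgenes and received a vector for SOCS3, an inhibitor of the pathway, together with the GFP vector, at the same total viral load. GFP+ gating does not select endothelial cells, and no group is a preparation of vessels.

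The capillaries of the brain are lined by endothelial cells joined by tight junctions, which together with a dense set of transporters form the blood-brain barrier. Claudin-5 and occludin seal the space between neighbouring cells, VE-cadherin and PECAM1 hold them together, and receptors for VEGF, the angiopoietins and the TGF-beta family keep the vessel stable. Glucose, lactate, amino acids, thyroid hormones and lipids enter through carriers in the endothelial membrane, while ABC transporters pump drugs back to the blood. The endfeet of astrocytes cover these vessels, and a few of the carriers, such as that for thyroid hormones, are known in mouse astrocytes too.

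Values are levels normalized by the authors, that is reads counted on a gene divided by a size factor of its sample, in which 1 read is worth 0.756 to 1.18 units. Between 19331876 and 32621917 reads fell on genes in the 19 samples. A gene is longer or shorter than another, so levels were compared between genes as percent of the gene's own mean in the 3 samples of GFP- cells. Ratios of the levels of gene pairs were formed as well, and these were compared between groups only. *Socs3*, the gene that the vector carries, was at 13296 to 37750.1 in APP-SOCS3 astrocytes, above every APP-GFP (438 to 1639) and WT-GFP (458 to 1208) sample. In GFP- cells *Socs3* was at 10320 to 17689, a range that overlaps that of APP-SOCS3 astrocytes. Summed markers of astrocytes (12 genes) were at 1282 to 2042% of GFP- cells for WT-GFP, 1401 to 1794% for APP-GFP and 1439 to 2243% for APP-SOCS3 astrocytes. In 4 GFP+ samples (WT-GFP 1, 2 and 3 and APP-GFP 2) fewer genes were detected, 15575 to 19198, against at least 21602 in the other GFP+ samples. In all, 3 entries of the table hold the reads of more than 1 gene, *Ramp2* with *Vps25*, *Rasip1* with *Izumo1* and *Fxyd5* with the microRNA gene *Mir7050*.

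Regulatory sequence is shown for 4 genes on which the results turn, the junction gene *Cldn5*, the receptor *Flt1*, and the transporters *Slco1a4* and *Slco1c1*, which lie close together on chromosome 6 but whose levels in astrocytes were unlike. On mm10, *Cldn5* is at chr16:18776846-18778262, *Flt1* at chr5:147561606-147726013, *Slco1a4* at chr6:141805440-141856171 and *Slco1c1* at chr6:141524384-141570177. A window of 250 bases before a RefSeq start (GRCm38.p6, the same genome as mm10) was found for 24 of the 39 genes, and for 22 of them that start lay within 250 bases of the deposited 5′ end (for *Abcb1a* and *Rasip1* it lay farther). The genes without a window were *Slc7a5*, *Bsg*, *Pecam1*, *Cdh5*, *Esam*, *Podxl*, *Acvrl1*, *Ptprb*, *Ramp2*, *Nos3*, *Sox17*, *Sox18*, *Ly6a*, *Vwf* and *Palmd*. In the sequences, capitals mark AGGAAG, a form of the motif of ETS factors such as ERG, and ACAAAG, a form of the motif of SOX factors such as SOX17, on either strand, so that CTTCCT and CTTTGT are marked as well. The windows are printed 5′ to 3′ on the strand of the gene.
Cldn5 (chr16:18776597-18776846, plus strand): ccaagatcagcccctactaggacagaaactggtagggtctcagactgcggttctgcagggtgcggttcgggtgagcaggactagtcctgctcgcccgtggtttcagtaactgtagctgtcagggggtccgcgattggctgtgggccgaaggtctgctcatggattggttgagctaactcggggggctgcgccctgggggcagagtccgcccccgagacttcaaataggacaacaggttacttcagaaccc
Flt1 (chr5:147726012-147726261, minus strand): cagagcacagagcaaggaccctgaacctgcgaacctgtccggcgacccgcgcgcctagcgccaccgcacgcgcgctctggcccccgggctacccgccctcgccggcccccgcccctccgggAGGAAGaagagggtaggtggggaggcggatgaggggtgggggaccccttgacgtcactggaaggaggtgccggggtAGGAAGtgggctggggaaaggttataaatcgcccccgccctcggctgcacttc
Slco1a4 (chr6:141856221-141856470, minus strand): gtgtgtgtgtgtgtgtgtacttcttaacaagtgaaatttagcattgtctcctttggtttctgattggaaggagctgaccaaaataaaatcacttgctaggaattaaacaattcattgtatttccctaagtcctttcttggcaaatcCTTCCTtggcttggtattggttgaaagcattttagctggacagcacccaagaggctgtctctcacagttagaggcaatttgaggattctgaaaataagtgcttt
Slco1c1 (chr6:141524104-141524353, plus strand): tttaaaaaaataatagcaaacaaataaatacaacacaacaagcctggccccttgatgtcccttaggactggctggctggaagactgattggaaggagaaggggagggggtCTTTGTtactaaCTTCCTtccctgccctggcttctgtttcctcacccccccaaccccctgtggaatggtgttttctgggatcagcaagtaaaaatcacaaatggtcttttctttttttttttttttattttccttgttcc

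Both transporters hold AGGAAG 1 time, *Flt1* holds it 2 times, and *Cldn5* holds none of the motifs searched. Over the 22 windows, AGGAAG was in 12 (54.5%), against 29.5% of all 32851 RefSeq windows of the same length. It was in 5 of 7 windows of signalling genes, in 3 of 6 of transport genes and in 1 of 4 of junction genes. The related form CGGAAG was in 1 of 22 windows (13.6% of all windows), and AGGAAG or CGGAAG was in 12 (39.2% of all windows). ACAAAG was in 3 (16.5% of all windows). Neither motif overlaps the other, and a match is only a run of letters, not a site of binding.

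The first question was how much of each gene was left in astrocytes after the sort. In WT-GFP astrocytes, 36 of 39 genes were lower than in GFP- cells by limma on log2(level + 1), which here means an unadjusted *p* not above 0.05 together with a 1.5-fold or larger difference, whereas 33.5% of the 26709 genes tested were called lower. The 3 genes that were not called were *Slco1c1*, *Mfsd2a* and the entry of *Ramp2*. Adjusted *p* was under 0.05 for 34 genes (31.9% of genes tested), and the samples of both groups did not overlap for 35 (34.8% of genes tested). The median log2 fold change of the 39 genes was -3.48, beside -1.31 over all genes tested. It was -4.83 for transcription factors, -4.10 for signalling, -4.06 for junction, -3.38 for the other marker genes and -2.60 for transport. The smallest *p*-values were those of *Slco1a4* (log2 fold change -4.12 ± 0.29, SE), *Robo4* (-3.21 ± 0.28), *Kdr* (-4.52 ± 0.48), *Flt1* (-4.19 ± 0.45) and *Ocln* (-3.38 ± 0.36). Of the 36 genes, 33 stayed called whichever sample was left out. The others were *Sox17* (-5.14, -4.84 and -4.51 without GFP- samples 1, 2 and 3), *Tek* (-5.03 and -4.66 without GFP- samples 2 and 3) and *Tie1* (-4.99 without GFP- sample 3). In these bulk samples, fewer endothelial cells and less RNA per cell cannot be told apart.

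**Figure D1:**
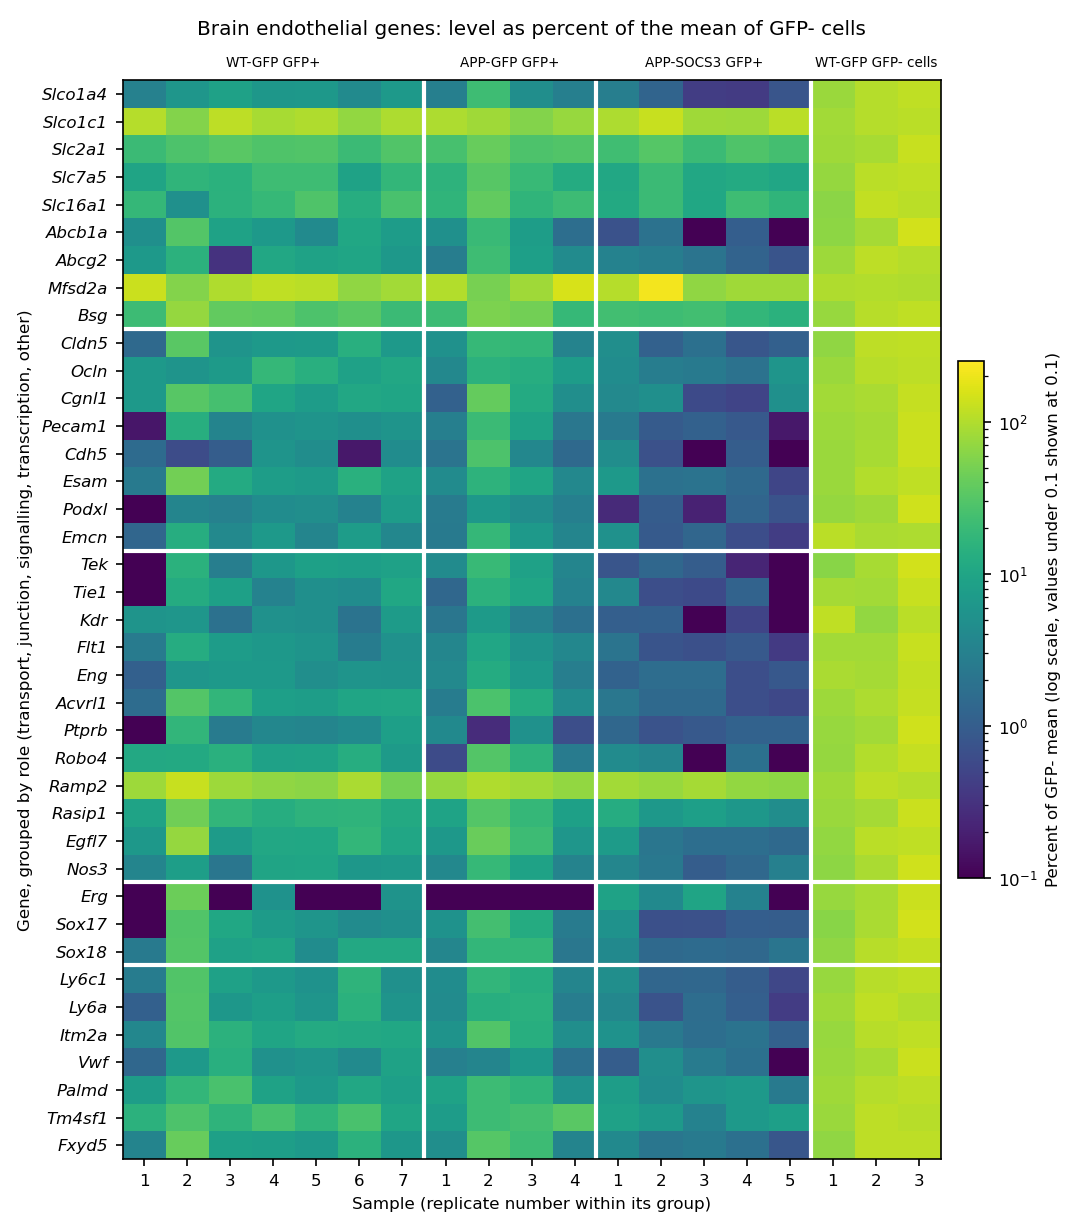
Level of each of the 39 genes (rows, grouped by role) in each of the 19 samples (columns), as percent of the gene's mean in GFP- cells, on a logarithmic color scale. *Slco1c1*, *Mfsd2a* and the entry of *Ramp2* stay near the color of GFP- cells in the GFP+ samples, and most other genes are darkest in the APP-SOCS3 samples.

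Junction genes were low in GFP+ astrocytes of all 3 groups. *Cldn5*, the main claudin of brain endothelium, was at 27533, 46883 and 48411 in GFP- cells and in WT-GFP astrocytes at 591 at the lowest, 2744 at the median and 13812 at the highest. In the 4 APP-GFP samples it was at 2118, 7668, 7252 and 1348 and in the 5 APP-SOCS3 samples at 1941, 463, 736, 331 and 453. Every GFP+ sample was below every GFP- sample, WT-GFP sample 2 was the highest of the GFP+ samples, and of the APP-SOCS3 samples only sample 1 overlapped the APP-GFP samples. *Ocln*, for occludin, was at 4258, 6038 and 6420.4 in GFP- cells, and in WT-GFP at 321 at the lowest, 483 at the median and 1029.8 at the highest. Levels of *Ocln* were 215, 853, 724 and 420.2 in APP-GFP and 252, 155, 137, 108 and 329 in APP-SOCS3 samples. Here WT-GFP sample 2 was not high, and APP-SOCS3 samples 1 and 5 were above the lowest APP-GFP sample.

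*Pecam1*, a surface adhesion molecule of endothelial cells, was at 9029.8, 9691 and 15046 in GFP- cells, and at 18.2 at the lowest, 595 at the median and 1498 at the highest in WT-GFP astrocytes. The APP-GFP samples had 328, 2366, 1035 and 252 and the APP-SOCS3 samples 275, 107, 127, 99.98 and 18.5. WT-GFP sample 1 stood far below the other WT-GFP samples. *Cdh5*, the cadherin of endothelial adherens junctions, was the junction gene most reduced by the sort, from 1421, 1641 and 2495 in GFP- cells to 3.11 at the lowest, 28.9 at the median and 107 at the highest in WT-GFP. The log2 fold change was -5.89 ± 0.99 (SE, limma adjusted *p* = 0.00107). *Cdh5* had 37.1, 516, 70.2 and 27.0 in APP-GFP and 85.01, 13.02, 0, 18.6 and 0 in APP-SOCS3 samples, where a value of 0 still allows up to 3 reads. APP-GFP sample 2 stood far above the other 3. *Podxl*, a sialomucin that coats the lumen, was at 3807, 4327 and 7517 in GFP- cells, at 0 at the lowest, 182 at the median and 397 at the highest in WT-GFP, at 134, 336, 238 and 151 in APP-GFP and at 13.2, 51.2, 11.0, 66.7 and 38.7 in APP-SOCS3 samples, and the APP-SOCS3 samples were all below the APP-GFP samples. The remaining junction genes, *Esam* and *Cgnl1* (an adhesion molecule and a cytoplasmic plaque protein of tight junctions) and *Emcn* (a surface mucin), had means of 14.4%, 14.7% and 5.70% of GFP- cells in WT-GFP astrocytes.

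The signalling genes include the receptors for VEGF and angiopoietins. *Flt1*, VEGF receptor 1, was at 23144, 23406 and 35335 in GFP- cells, and in WT-GFP astrocytes at 708 at the lowest, 1559.7 at the median and 3439.6 at the highest. It was at 993, 2825, 1514 and 1008 in APP-GFP and at 559.7, 206, 182, 246 and 105 in APP-SOCS3 samples, so that each APP-SOCS3 sample was below each APP-GFP and each WT-GFP sample. *Kdr*, VEGF receptor 2, was at 5614, 3334 and 5304 in GFP- cells and at 88.3 at the lowest, 246 at the median and 349.6 at the highest in WT-GFP. The levels of *Kdr* were 102, 339, 148 and 84.6 in APP-GFP and 50.8, 53.0, 4.00, 23.5 and 0 in APP-SOCS3 samples, again without overlap between APP-SOCS3 and WT-GFP or APP-GFP. *Tek*, the angiopoietin receptor TIE2, had 5201, 7513 and 12485 in GFP- cells, 0 at the lowest, 681 at the median and 1243 at the highest in WT-GFP, 361, 1660.3, 746 and 294 in APP-GFP and 66.2, 114, 85.01, 18.6 and 0 in APP-SOCS3 samples. The APP-SOCS3 samples of *Tek* did not overlap the APP-GFP samples, but WT-GFP sample 1 was at 0 as well.

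Receptors of the TGF-beta family followed the same order. *Eng*, the coreceptor endoglin, was at 13291, 12383 and 17386 in GFP- cells and at 160.2 at the lowest, 825 at the median and 991 at the highest in WT-GFP, against 562, 1770.3, 981 and 411 in APP-GFP and 167, 233, 238, 93.1 and 122 in APP-SOCS3 samples. *Acvrl1*, the receptor ALK1, was at 4647, 5537 and 7462 in GFP- cells and at 92.6 at the lowest, 584 at the median and 1838 at the highest in WT-GFP, against 158, 1613, 729 and 257 in APP-GFP and 132, 84.6, 84.0, 38.2 and 32.5 in APP-SOCS3 samples. For both receptors the APP-SOCS3 samples were below all APP-GFP samples, and WT-GFP sample 1 was the lowest of its group. *Robo4*, a guidance receptor of endothelium, had similar levels in the 7 WT-GFP samples (283 to 572, median 446, against 2883, 4024 and 4936 in GFP- cells) but scattered widely in APP-GFP (23.5, 1216, 621 and 104) and APP-SOCS3 samples (171, 139, 1.00, 71.6 and 0).

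The other signalling genes, *Tie1* (the orphan partner of TIE2), *Ptprb* (the phosphatase VE-PTP), *Rasip1* (a regulator of vessel lumen formation), *Egfl7* (a secreted matrix protein) and *Nos3* (endothelial nitric oxide synthase), had means of 5.64 to 19.5% of GFP- cells in WT-GFP astrocytes. The entry of *Ramp2*, a subunit of the adrenomedullin receptor, stood apart at 49.0 to 130.5% for WT-GFP, 69.6 to 98.7% for APP-GFP and 66.6 to 87.7% for APP-SOCS3 samples. It holds the reads of *Vps25* too, a widely expressed gene of the endosomal sorting machinery, so its level is not that of *Ramp2* alone. Exons of *Egfl7*, *Nos3*, *Eng* and *Acvrl1* overlap genes on the other strand, as do those of *Slc2a1*, *Abcb1a*, *Rasip1*, *Sox17* and *Palmd*, and whether reads were counted by strand is not stated.

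Of the transcription factors, *Erg* (an ETS factor of endothelial identity) was at 139, 166 and 247 in GFP- cells and was hardly detected in GFP+ astrocytes. It had 0 reads in 4 of 7 WT-GFP and in all 4 APP-GFP samples, and at most 78.4 in WT-GFP sample 2 and 18.002 in APP-SOCS3 astrocytes. With 3 reads allowed in each sample, mean *Erg* levels in APP-GFP were at least 4.73-fold lower than in WT-GFP, where 1 sample set most of the mean. *Sox17*, a SOX factor of arterial endothelium, was at 4105, 6199 and 9787 in GFP- cells, at 0 at the lowest, 393 at the median and 1974 at the highest in WT-GFP, at 362, 1640.3, 823 and 172 in APP-GFP and at 361, 44.6, 46.0, 69.6 and 66.8 in APP-SOCS3 samples. Levels of *Sox17* in APP-SOCS3 sample 1 overlapped APP-GFP, and the other 4 APP-SOCS3 samples did not. The related *Sox18* had means of 11.3%, 10.3% and 2.11% of GFP- cells in the WT-GFP, APP-GFP and APP-SOCS3 groups.

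The other marker genes were low in astrocytes as well. *Ly6c1*, a surface protein abundant on brain endothelium, was at 15159.7, 21754 and 23766 in GFP- cells and at 539.8 at the lowest, 1409 at the median and 6093 at the highest in WT-GFP, with 899.8, 3488, 2686 and 703 in APP-GFP and 977, 264, 275, 206 and 108 in APP-SOCS3 samples. *Ly6a*, the stem cell antigen SCA-1, was at 5298, 7609.5 and 6682 in GFP- cells and at 72.1 at the lowest, 411 at the median and 2042 at the highest in WT-GFP, with 285, 886, 929 and 178 in APP-GFP and 246, 48.4, 106, 70.6 and 26.4 in APP-SOCS3 samples. In both *Ly6* genes WT-GFP sample 2 was highest of all GFP+ samples, and APP-SOCS3 sample 1 was within the range of APP-GFP. Their relatives are close in sequence, and how reads matching several genes were treated is not stated. *Itm2a*, an integral membrane protein, was at 25227, 35389 and 39249.7 in GFP- cells and at 1248 at the lowest, 3708 at the median and 10058 at the highest in WT-GFP, with 1830.3, 10005, 4529 and 1571 in APP-GFP and 1823, 796, 570.1, 658 and 381 in APP-SOCS3 samples.

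*Tm4sf1*, a tetraspanin-like protein of endothelial filopodia, was the other marker gene least reduced by the sort. The study counts it among the markers of reactive astrocytes. It was at 10872, 16077 and 14846 in GFP- cells, at 1375 at the lowest, 2338 at the median and 3865 at the highest in WT-GFP, at 1040.1, 2943, 3328 and 4634 in APP-GFP and at 1219, 940.4, 454, 948 and 1149 in APP-SOCS3 samples. Only the lowest APP-GFP sample (sample 1) overlapped APP-SOCS3, and WT-GFP did not. *Vwf*, the clotting factor stored in endothelial granules, was at 4113, 4821 and 7207 in GFP- cells and at 73.6 at the lowest, 320.1 at the median and 744 at the highest in WT-GFP, with 165, 189, 354 and 95.9 in APP-GFP and 54.1, 257, 138, 96.1 and 0 in APP-SOCS3 samples. Unlike most genes, *Vwf* was not at its highest in WT-GFP sample 2 or APP-GFP sample 2 but in WT-GFP sample 3 and APP-GFP sample 3. *Palmd* and *Fxyd5* had means of 12.4% and 12.6% of GFP- cells in WT-GFP astrocytes.

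Among transport genes, *Slco1c1* and *Mfsd2a* had about the same levels in astrocytes and GFP- cells, and the other 7 were lower in astrocytes to differing degrees. *Slco1c1*, a carrier of thyroid hormones that mouse astrocytes are known to express, was at 26827, 33035 and 35331 in GFP- cells and at 18797 at the lowest, 29940.2 at the median and 36216 at the highest in WT-GFP astrocytes. It was at 30095, 25867, 18670.3 and 23881 in APP-GFP and at 30303, 41215, 25846, 25472 and 35533 in APP-SOCS3 samples, and all 4 groups overlapped. *Mfsd2a*, the carrier of lipids containing docosahexaenoic acid, was at 5719, 5931 and 5665 in GFP- cells, at 3411 at the lowest, 5611 at the median and 7780.5 at the highest in WT-GFP, at 5837, 2882, 4753 and 8857 in APP-GFP and at 6060.0, 12627, 3892, 4752 and 4768 in APP-SOCS3 samples. Its 3 GFP- samples were nearly equal and lay inside the range of each astrocyte group. Between WT-GFP astrocytes and GFP- cells the log2 fold change was -0.17 ± 0.20 for *Slco1c1* and -0.11 ± 0.25 (SE) for *Mfsd2a*, with limma adjusted *p* of 0.519 and 0.738.

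*Slc2a1*, the glucose carrier GLUT1, was at 22089, 24156 and 35165 in GFP- cells and at 5619 at the lowest, 7853 at the median and 9155 at the highest in WT-GFP, with 7009.8, 10987, 7576 and 8118 in APP-GFP and 6171, 8739, 5549, 7790.4 and 6495 in APP-SOCS3 samples. The GFP+ groups of *Slc2a1* overlapped, at 20.7 to 33.7%, 25.8 to 40.5% and 20.4 to 32.2% of GFP- cells. *Slc7a5*, the carrier of large neutral amino acids, was at 16789.9, 26065 and 27577 in GFP- cells, at 2124 at the lowest, 3955 at the median and 5243 at the highest in WT-GFP, at 3699, 7607, 4607 and 2884 in APP-GFP and at 2570.2, 4922, 2583, 2811 and 2385 in APP-SOCS3 samples. *Slc16a1*, the lactate carrier MCT1, was at 5038, 9673 and 8764 in GFP- cells, at 392 at the lowest, 1445 at the median and 2284 at the highest in WT-GFP, at 1298, 2988, 1302 and 1690.4 in APP-GFP and at 904, 1599.8, 828, 1722 and 1327 in APP-SOCS3 samples. *Slc16a1* was lowest in WT-GFP sample 2, where most of the 39 genes were highest of that group. *Bsg*, the chaperone basigin of lactate carriers, was at 75537, 109292 and 117750.1 in GFP- cells and at 20928 at the lowest, 33861 at the median and 73213 at the highest in WT-GFP, with 21621, 53555, 47044 and 19201 in APP-GFP and 23749, 22176, 23324, 17679 and 14724 in APP-SOCS3 samples. It stayed at 14.6 to 72.6% of GFP- cells over all GFP+ samples.

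By contrast *Slco1a4*, a carrier of organic anions in the same family as *Slco1c1*, was at 24393, 32446 and 37548 in GFP- cells and at 969.5 at the lowest, 2007 at the median and 2749.6 at the highest in WT-GFP, 17.4-fold lower (log2 fold change -4.12 ± 0.29, SE, limma adjusted *p* = 7.05e-06). It was at 931, 6889.7, 1516 and 915 in APP-GFP and at 885, 389.7, 130.0, 122 and 250.5 in APP-SOCS3 samples, and the APP-SOCS3 samples were below all samples of the other groups. *Abcb1a*, which encodes P-glycoprotein, was at 2457, 3237 and 5292 in GFP- cells, at 155 at the lowest, 281 at the median and 1115 at the highest in WT-GFP, at 186, 725, 285 and 61.0 in APP-GFP and at 26.5, 70.7, 0, 38.2 and 0 in APP-SOCS3 samples. Its paralog *Abcb1b* and the family of *Slco1a4* are close in sequence, so reads may have been split between them. *Abcg2*, the second drug pump, had means of 8.37%, 9.45% and 1.98% of GFP- cells in the WT-GFP, APP-GFP and APP-SOCS3 groups. The log2 ratio of *Slco1c1* to *Slco1a4* was 0.03 in GFP- cells and 3.97 in WT-GFP astrocytes (2-sided exact permutation *p* = 0.0167, the smallest that 7 against 3 samples can give, 0.0455 after adjustment over 12 ratio tests).

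**Figure D2:**
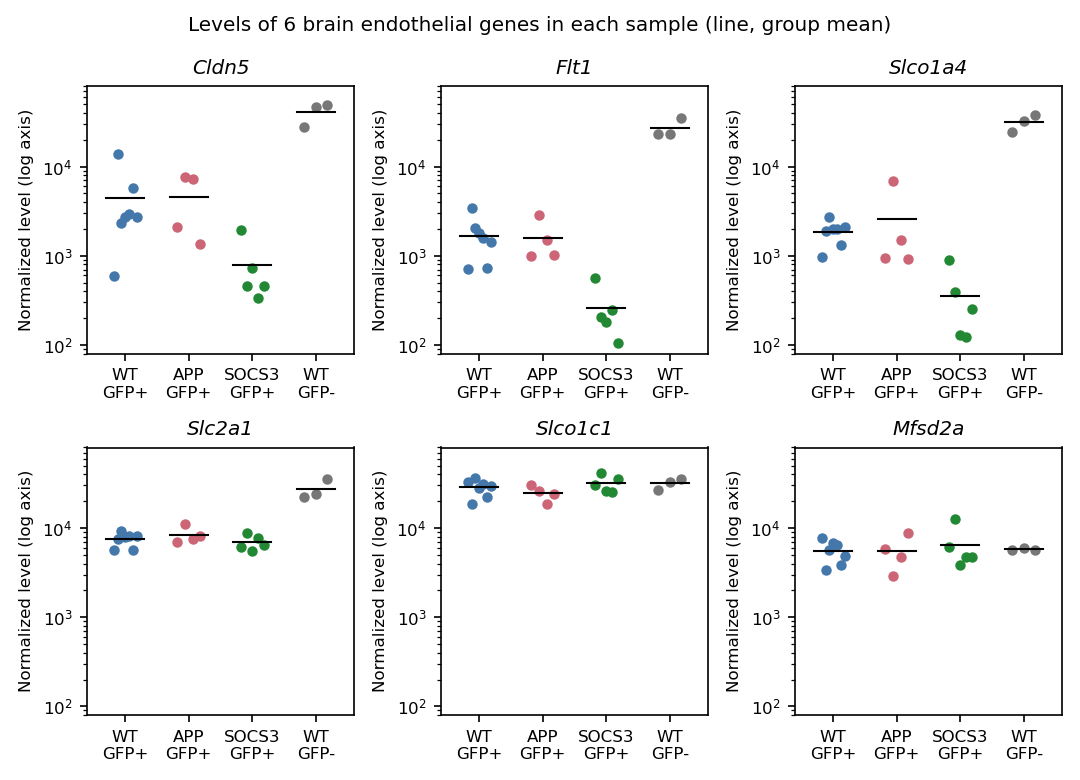
Normalized levels (log axis, the same range in each panel) of *Cldn5*, *Flt1*, *Slco1a4*, *Slc2a1*, *Slco1c1* and *Mfsd2a* in each sample, by group, with lines at group means. *Cldn5*, *Flt1* and *Slco1a4* are lowest in APP-SOCS3 astrocytes, *Slc2a1* is lower in all astrocyte groups than in GFP- cells, and the 4 groups of *Slco1c1* and *Mfsd2a* overlap.

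Within each group of astrocytes, most of the 39 genes were high or low in the same samples. The median over the genes, as percent of GFP- cells, was 3.41, 27.7, 8.74, 8.11, 7.13, 10.7 and 8.38 in WT-GFP samples 1 to 7, 4.30, 21.1, 12.4 and 3.48 in APP-GFP samples 1 to 4 and 4.52, 2.13, 1.66, 1.40 and 0.851 in APP-SOCS3 samples 1 to 5. WT-GFP sample 2 held the highest value of its group for 24 genes, and sample 1 the lowest for 24. APP-GFP sample 2 was highest for 31 genes and sample 4 lowest for 23, while APP-SOCS3 sample 1 was highest for 24 and sample 5 lowest for 22. Averaged over the samples of a group, this median was 10.6% in WT-GFP, 10.3% in APP-GFP and 2.11% in APP-SOCS3 astrocytes. Without APP-GFP sample 2 the APP-GFP value was 6.72%. With the mean over genes in place of the median, the value was 11.2% in APP-SOCS3, a mean that includes *Slco1c1*, *Mfsd2a* and the entry of *Ramp2*, which stayed near their level in GFP- cells.

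The roles differed across these samples. Medians of the 9 transport genes were 12.9 to 28.3% of GFP- cells for WT-GFP, 16.6 to 38.2% for APP-GFP and 11.0 to 20.97% for APP-SOCS3 samples, and the 3 ranges overlapped. Medians of the 8 junction genes were 1.5001 to 13.2% for WT-GFP, 2.74 to 18.6% for APP-GFP and 0.624 to 4.55% for APP-SOCS3 samples. For the 12 signalling genes they were 3.07 to 13.7%, 3.42 to 19.4% and 0.702 to 2.96%, and the highest APP-SOCS3 median was below the lowest of both other groups. In every GFP+ sample the transport median was above the junction median, by 1.59-fold (WT-GFP sample 6) to 23.4-fold (APP-SOCS3 sample 5). These medians are descriptions and were not tested.

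**Figure D3:**
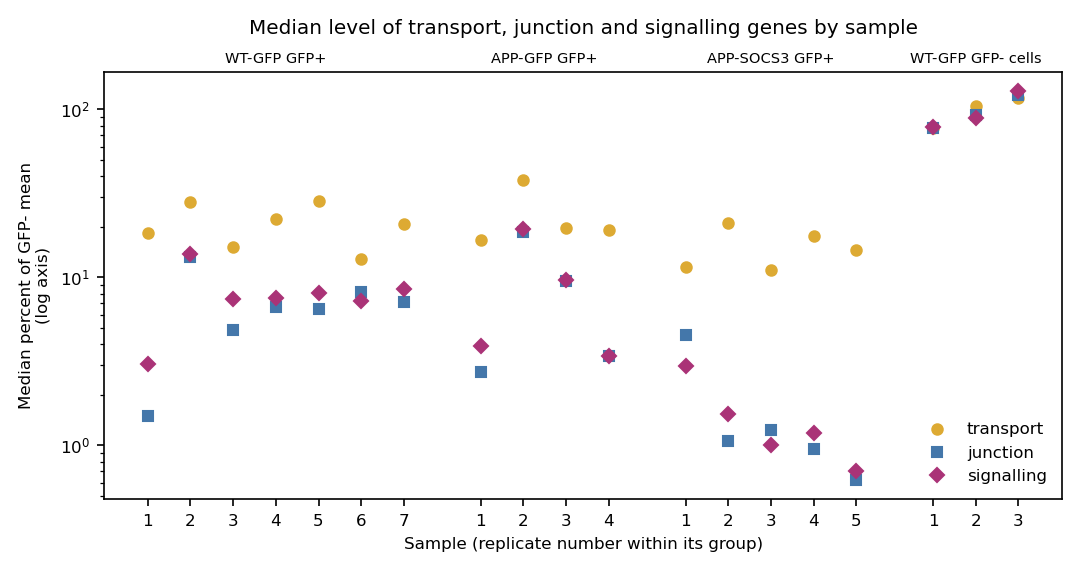
Median level of transport, junction and signalling genes in each sample, as percent of the mean of GFP- cells (log axis). Transport medians lie between 11.0 and 38.2% in all GFP+ samples. Junction and signalling medians are below 5% in all APP-SOCS3 samples, and also in WT-GFP sample 1 and APP-GFP samples 1 and 4. In WT-GFP sample 3 the junction median alone is below 5%.

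Markers of other cell types varied across the same samples. The 10 markers of mural cells, the pericytes and smooth muscle of vessels, summed to 2.43 to 22.1% of GFP- cells for WT-GFP, 2.76 to 13.9% for APP-GFP and 1.58 to 2.60% for APP-SOCS3 samples, with WT-GFP sample 2 (22.1%) and APP-GFP samples 2 and 3 (13.9 and 12.4%) highest. Markers of microglia (10 genes) summed to 6.96 to 25.2%, 9.81 to 51.7% and 5.25 to 9.66%, again with APP-GFP samples 2 and 3 highest. Hemoglobin genes and *Alas2*, for red blood cells (5 genes), reached 69.9% in WT-GFP sample 2 and 112% in APP-GFP sample 3, and were at 0.454 to 10.1% in APP-SOCS3 samples. Border macrophage markers (6 genes) were at 0 to 30.4%, 6.27 to 38.0% and 0 to 14.8%, neuronal markers (8 genes) at 4.48 to 25.9%, 14.4 to 29.1% and 7.55 to 19.1%, and oligodendrocyte markers (8 genes) at 166 to 245%, 211 to 645% and 138 to 222%. *Gad2* was at 0 in every WT-GFP and APP-GFP sample, and *F13a1* in every APP-SOCS3 sample. The part of other cells in the sorted samples in the differences described next was not tested.

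**Figure D4:**
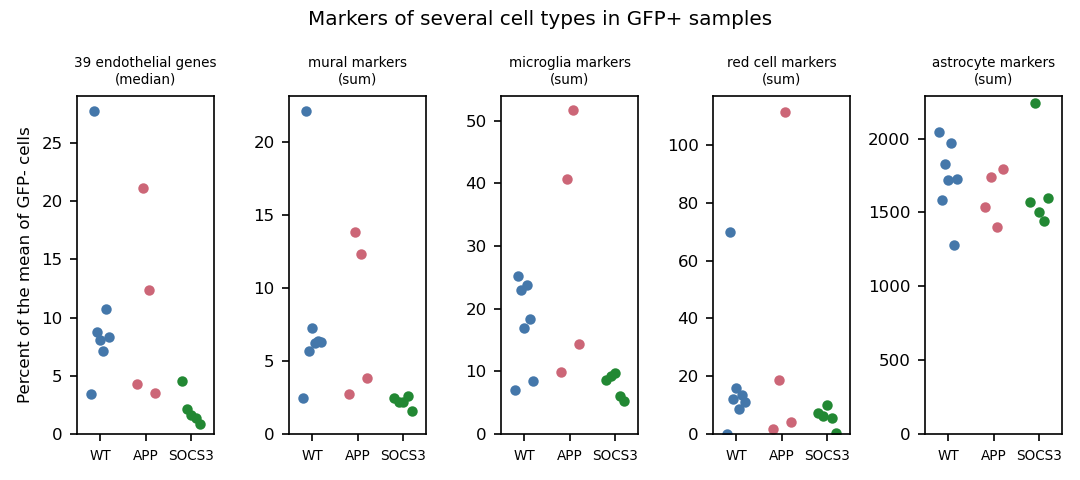
Median level of the 39 endothelial genes and summed levels of mural, microglial, red cell and astrocyte markers in each GFP+ sample, as percent of the mean of GFP- cells, by group (WT for WT-GFP, APP for APP-GFP and SOCS3 for APP-SOCS3). Mural and microglial sums are low and close together in the 5 APP-SOCS3 samples, and astrocyte sums overlap between the 3 groups.

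The second question was whether these genes differ in astrocytes of APP mice. When APP-GFP was compared with WT-GFP, limma called 0 of the 39 genes, and 0 had an unadjusted *p* under 0.05, whereas 2.23% of the 22969 genes tested were called in either direction. For each gene the groups overlapped (0.313% of genes tested did not). On whole reads, edgeR and DESeq2 called 1 gene each at the same thresholds, *Erg*, which was at 0 in APP-GFP, beside 2.87% and 2.31% of all genes tested. None of the 39 had an adjusted *p* under 0.05 with limma, edgeR or DESeq2, which was reached by 0.00435%, 0.00435% and 0.104% of all genes tested. The median log2 fold change was -0.02, with 20 genes below and 19 above 0, and 0.09 over all genes tested. The median remained -0.02 with *Erg* at its bound. The precision differed strongly between genes, since the SE was 0.18 for *Slc2a1* (log2 fold change 0.17) and 0.19 for *Slco1c1* (-0.20), but 0.71 for *Cldn5* (0.23), 1.12 for *Cdh5* (1.39) and 1.58 for *Tek* (1.29). For junction and receptor genes with such errors, changes smaller than a few SE were not detectable with these samples.

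After *Erg* (limma adjusted *p* = 0.999), the smallest *p*-values between APP-GFP and WT-GFP were those of *Cdh5* (log2 fold change 1.39 ± 1.12, SE), *Vwf* (-0.71 ± 0.58), *Robo4* (-0.99 ± 0.83) and *Slco1c1* (-0.20 ± 0.19). Single libraries mattered here. Without APP-GFP sample 2, *Slco1a4* (-0.71) and *Robo4* (-1.83) were called lower in APP-GFP, and without WT-GFP sample 1, *Vwf* was (-1.04). Of the 10 microglial markers, 0 were called higher by limma, and the median of the list was 0.43 on the log2 scale.

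The third question was how astrocytes with SOCS3 differ from those with GFP alone in APP mice. In APP-SOCS3 compared to APP-GFP astrocytes, 27 of the 38 genes tested were called lower and none higher, whereas 3.37% of the 22844 genes tested were called lower. *Erg* was below the minimum level and was not tested. It passed that level without APP-SOCS3 sample 2, 4 or 5 and was then called higher in APP-SOCS3 astrocytes, as it was with no minimum level. *Erg* had 0 reads in every APP-GFP sample, and its mean in APP-SOCS3 (9.58) was at least 3.23-fold higher than 3 reads in each of them. No gene passed an adjusted *p* of 0.05 with limma (27 had an unadjusted *p* under 0.05). Over all genes tested, 0.00438% had such an adjusted *p*. On whole reads, edgeR called 27 genes lower (4.05% of all genes tested) and DESeq2 29 (4.15%) at the same thresholds. An adjusted *p* under 0.05 was reached by 0 of the genes with edgeR (0% of all genes tested) and by 17 with DESeq2 (0.897%), *Flt1*, *Cldn5*, *Eng* and *Tek* among them. For 7 genes every APP-SOCS3 sample was below every APP-GFP sample (groups did not overlap for 2.01% of genes tested). The median log2 fold change was -2.26, that is 4.78-fold lower, beside 0.08 over all genes tested. Of the 27 genes, 5 are among 6 that the study listed as hubs of gene networks built on these samples (*Acvrl1*, *Bsg*, *Fxyd5*, *Itm2a* and *Ly6c1*, but not *Rasip1*), which are not independent evidence, and 22 of the other 32 were called lower. The study also named *Tm4sf1*, among these 22, in the set of co-regulated genes with the hubs, as a reactive astrocyte marker. The 22 are thus not free of that overlap.

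Of the junction genes, 7 of 8 were called lower, with a median log2 fold change of -2.42 over the 8, and *Cgnl1* (-1.81 ± 1.11, SE) was not called. *Cldn5* had a log2 fold change of -2.49 ± 0.61 (SE, limma adjusted *p* = 0.576), or 5.62-fold lower, and *Podxl*, whose samples did not overlap, a log2 fold change of -2.75 ± 0.66 (SE, limma adjusted *p* = 0.576). *Pecam1* had -2.83 ± 0.81, *Cdh5* -3.40 ± 1.48 and *Ocln* -1.43 ± 0.47 on the log2 scale (SE). Of the 12 signalling genes 8 were called lower, with a median of -2.62 over the 12. *Flt1* had the smallest *p* of the 39 genes, with a log2 fold change of -2.69 ± 0.46 (SE, limma adjusted *p* = 0.194), 6.45-fold lower. It was followed by *Eng*, with a log2 fold change of -2.31 ± 0.45 (SE, limma adjusted *p* = 0.348). The samples of *Flt1*, *Eng*, *Acvrl1* (-2.82 ± 0.69), *Kdr* (-3.51 ± 1.19) and *Tek* (-4.51 ± 1.25) did not overlap, with an exact permutation *p* of 0.0159 each, the smallest that 5 against 4 samples can give. This *p* follows from the lack of overlap and was not adjusted over genes. The 4 signalling genes not called were *Robo4* (-3.37 ± 1.75), *Rasip1* (-0.998 ± 0.45), *Ptprb* (-0.45 ± 0.88) and the entry of *Ramp2* (-0.08 ± 0.14).

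Only 4 of the 9 transport genes were called lower, and the median of the 9 was -0.58. They were *Slco1a4*, with a log2 fold change of -2.69 ± 0.70 (SE, limma adjusted *p* = 0.576) and no overlap, *Abcb1a* (-4.54 ± 1.43), *Abcg2* (-1.97 ± 0.60) and *Bsg* (-0.68 ± 0.30). The 5 carriers that were not called were *Slc7a5* (-0.58 ± 0.29), *Slc16a1* (-0.48 ± 0.30), *Slc2a1* (-0.28 ± 0.17), *Mfsd2a* (0.18 ± 0.37) and *Slco1c1* (0.36 ± 0.18). These are the transport genes with the highest levels in WT-GFP astrocytes as percent of GFP- cells, apart from *Bsg*. The log2 ratio of *Slco1c1* to *Slco1a4* was 6.86 in APP-SOCS3 and 3.81 in APP-GFP astrocytes, without overlap (2-sided exact permutation *p* = 0.0159, 0.0455 after adjustment over 12 ratio tests). The ratio restates the levels of *Slco1c1* and *Slco1a4* given above, which changed unequally in the same samples. The log2 ratio of *Slc2a1* to *Cldn5* was 3.44 and 1.22 (exact permutation *p* = 0.0476, 0.0816 adjusted), and that of *Mfsd2a* to *Cldn5* 3.21 and 0.54 (exact permutation *p* = 0.0635, 0.0889 adjusted).

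Both transcription factors tested, *Sox17* (-2.72 ± 0.75) and *Sox18* (-1.86 ± 0.65), and 6 of the 7 other marker genes were called lower, and *Vwf* (-2.0003 ± 1.37) was not. The 6 called marker genes ranged from -2.57 for *Ly6a* to -1.18 for *Palmd*. Of the 27 genes, 22 stayed called whichever sample was left out. The exceptions were *Bsg* (-0.43 without APP-GFP sample 2, and not called without 5 other samples in turn, APP-GFP 3 and APP-SOCS3 2 to 5), *Cdh5* (-2.50 without APP-GFP sample 2, likewise for APP-GFP 3 and APP-SOCS3 3 and 5), *Tie1* (-2.90 and -3.11 without APP-GFP samples 2 and 3), *Palmd* (-0.87 and -0.99, likewise for APP-SOCS3 2 and 5) and *Sox18* (-1.42 without APP-GFP sample 3). Without APP-GFP sample 2, in which most genes were highest of that group, 23 genes were called and the median was -1.80. Conversely *Cgnl1* (-2.67) and *Robo4* (-4.40) were called without APP-GFP sample 1, *Rasip1* (-1.26) and *Slc7a5* (-0.78) without APP-GFP sample 4, and some of these also without APP-SOCS3 sample 1 (*Robo4* and *Rasip1*), APP-SOCS3 sample 2 (*Slc7a5*) or APP-GFP sample 1 (*Rasip1*).

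Other cell type markers moved in the same comparison. All 10 microglial markers were called lower (summed levels 8400.0 to 15469, against 15708 to 82746 with GFP alone), as were 5 of 10 mural markers (*Abcc9*, *Vtn*, *Higd1b*, *Acta2* and *Tagln*, summed levels of the list 2480.1 to 4071, against 4327 to 21689) and 4 of 6 border macrophage markers. Of the neuronal markers 3 of 7, of the oligodendrocyte markers 1 of 7 and of the red cell markers 0 of 5 were called lower. Of 12 astrocyte markers, only *Gfap* was called lower, and the median log2 fold change of the list was 0.03. The part of other cells in the lower endothelial levels was not tested. The only sample here with fewer genes detected was APP-GFP sample 2, without which 23 of 38 endothelial genes were called, all lower.

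Lastly, APP-SOCS3 astrocytes were set against WT-GFP astrocytes. The comparison shares its groups with those above, so it is no independent repeat. In it 26 of 39 genes were called lower and none higher (2.02% of the 22958 genes tested were called lower), none with a limma adjusted *p* under 0.05 (26 at an unadjusted *p* under 0.05). Over all genes tested, 0.0305% had such an adjusted *p*. On whole reads, edgeR called 28 genes lower (3.32% of all genes tested) and DESeq2 30 (3.59%) at the same thresholds. With edgeR 0 and with DESeq2 18 reached an adjusted *p* under 0.05, beside 0.00436% and 0.788% of all genes tested. Of the genes listed as hubs all 6 were called lower, and of the other 33 genes 20 were, *Tm4sf1* among them. The median was -2.06, beside 0.19 over all genes tested, and 7 genes did not overlap (0.566% of genes tested). The smallest *p*-values were those of *Slco1a4*, with a log2 fold change of -2.73 ± 0.44 (SE, limma adjusted *p* = 0.0545), and *Flt1*, with a log2 fold change of -2.71 ± 0.44 (SE, limma adjusted *p* = 0.0545), and next came *Itm2a* (-2.37 ± 0.45), *Tm4sf1* (-1.54 ± 0.30) and *Acvrl1* (-3.03 ± 0.62). By role, 4 of 9 transport genes (median -0.29), 6 of 8 junction genes (-2.05), 8 of 12 signalling genes (-2.51), 1 of 3 transcription factors (*Sox18*) and all 7 other marker genes were called lower. The log2 ratio of *Slco1c1* to *Slco1a4* was higher by 2.89 than in WT-GFP (exact permutation *p* = 0.00253, the smallest that 5 against 7 samples can give, 0.0303 adjusted).

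WT-GFP sample 1, which had 0 reads of several of these genes, weighed on this comparison. Without it *Podxl* (-2.88), *Tek* (-4.54), *Tie1* (-3.79), *Ptprb* (-2.30) and *Sox17* (-2.73) were called lower as well, and 30 genes in all, with a median of -2.46, while *Cdh5* (-2.89) was called without APP-SOCS3 sample 1. In the other direction, *Bsg* was not called without WT-GFP sample 2 (-0.54), nor *Vwf* without WT-GFP sample 3 (-2.49), and *Abcg2* and *Pecam1* each lost their call in 10 of the 12 fits that left out 1 sample (-1.42 and -1.5002 without APP-SOCS3 sample 5). With only WT-GFP samples 4 to 7, in which more genes were detected, 29 of 38 genes were called, with a median of -2.32. Of the marker lists, 9 of 10 microglial and 5 of 10 mural markers were called lower, beside 1 of 12 astrocyte markers (*Gfap*).

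A further 68 endothelial genes that are not among the 39 (junctions, transport, signalling, transcription, and genes of arteries and veins) were read in the same fits. In WT-GFP astrocytes 56 of 68 were lower than in GFP- cells (33.5% of all genes tested) and 2 were higher, with a median of -3.93 (-1.31 over all genes tested). The smallest *p*-values were those of *Cav1* (-3.94 ± 0.30), for the coat protein of caveolae, *Gja5*, an arterial connexin that had 0 reads in every WT-GFP sample and a mean of 62.8 in GFP- cells, and *Apcdd1* (-4.88 ± 0.47), a Wnt inhibitor. The genes that were higher in astrocytes were *S1pr1* (2.49 ± 0.25), a sphingosine phosphate receptor, and *Slc3a2* (0.59 ± 0.13), the heavy chain that pairs with the product of *Slc7a5*. None of 64 was called by limma between APP-GFP and WT-GFP (0 at an unadjusted *p* under 0.05), and edgeR and DESeq2 called 1 each, *Bmx*, beside the shares of all genes given above for these tools. The smallest limma *p*-values were those of the factor *Klf4* (2.75 ± 1.58), the caveolin *Cav2* (-0.61 ± 0.36) and the ephrin receptor *Ephb4* (-2.42 ± 1.49).

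In APP-SOCS3 compared to APP-GFP astrocytes, 24 of 63 of these genes were called lower and 1 higher, with a median of -1.45. Over all genes tested, 3.37% were called lower and the median was 0.08. An adjusted *p* under 0.05 was reached by 0 of these genes with limma or edgeR and by 8 with DESeq2 (0.897% of all genes tested). *Lmo2*, among these 8, is a hub that the study listed on these samples, so it is not independent evidence. The smallest *p*-values were those of the taurine carrier *Slc6a6* (-1.97 ± 0.42), the adhesion receptor *Adgrl4* (-3.44 ± 0.80) and the shear-responsive factor *Klf2* (-2.38 ± 0.61). *Cgn*, for the junction protein cingulin, was the gene called higher (3.15 ± 1.06). By list, 7 of 12 transcription factors, 7 of 14 transport genes, 5 of 10 junction genes, 4 of 15 signalling genes and 2 of 13 genes of arteries and veins were called lower. Their median log2 fold changes were -2.11, -1.30, -1.38, -1.45 and 0.47, in that order. *Slc38a5* is in the list of transport and in that of arteries and veins, so it is counted in both. Among the endothelial genes described first, medians were -0.58 for transport, -2.42 for junction and -2.62 for signalling. So wide a gap between transport and those other roles was not seen in these further genes. The medians were not tested against each other. In APP-SOCS3 compared to WT-GFP astrocytes, 19 of 64 were called lower (2.02% of all genes tested) and none higher (median -0.77), led by *Cd34* (-2.13 ± 0.39), the iron exporter gene *Slc40a1* (-1.61 ± 0.30) and the organic anion carrier gene *Slc22a8* (-2.23 ± 0.43).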

How the data were processed

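RNA of sorted cells was reverse transcribed and amplified by the authors (SMARTer v4, Nextera XT), sequenced in pairs, mapped to mm10 (STAR 2.4.0 in the submitters' processing notes), counted on the authors' gene annotation and normalized with DESeq2. What was deposited is a normalized signal: each gene's read count in a sample over that sample's size factor. Since values of a sample are whole multiples of 1 value, whole reads were recovered (100% within a tolerance of 0.01 reads). Whether PCR copies were removed is not stated, so a floor of 3 reads covers counting error only.

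The 39 genes, their roles and the other lists were chosen with earlier results of these data known. Groups are those of the labels. Each comparison was fitted in R 4.3.3 with limma 3.58.1, allowing a trend of variance with level and no covariates, on log2(level + 1) of the samples of both groups, for genes whose mean level reached 10 in 1 of the groups or both, and was adjusted by the Benjamini-Hochberg method over all genes tested. A gene was called where the unadjusted *p* was not above 0.05 and the difference was 1.5-fold or larger. On this scale the added 1 shrinks fold changes of low genes, whereas samples at 0 reads can make them larger than the ratio of group means. Ratios of genes were compared by 2-sided exact permutation tests, and 12 were adjusted together. The gene pairs of these ratios were not part of the plan of tests, and the adjustment does not cover other pairs. The fits were tested on simulated data with known changes. These data had the same setting of scatter for every gene, no low genes and no shifts shared by the genes of a sample. They therefore do not cover the scatter of the genes described here.

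Values are given in full for 20 genes chosen as anchors of the roles and for the 5 genes with the smallest *p* in each comparison, and as ranges and counts for the others. Of the other endothelial genes, the 3 with the smallest *p* were named, and *S1pr1*, *Slc3a2*, *Cgn* and *Bmx* were named after their values were seen. Alternatives were pseudocounts of 0.1 and 10, minimum levels of 0 and 100, equal totals, adjusted *p*, edgeR 4.0.16 (TMM) and DESeq2 1.42.0 on whole reads, all samples in 1 fit, a block of replicate numbers, and each sample left out. Leaving out the GFP+ samples with under 20000 genes detected was chosen after seeing the data. Promoter windows are those of RefSeq (GRCm38.p6).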

Additional observations from a re-analysis of the deposited data

Results flagged for a closer look

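In 116 groups of 4 to 7 samples, 1 for each gene and GFP+ group with values, 15 had a sample far from the others on the log2 scale by Dixon's test, where chance gives about 1 in 20 groups, or 5.8. Below, the ratio is the gap to the next sample over the range of the group.

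WT-GFP sample 1 was the low sample in 7 of the 15, namely *Pecam1* (level 18.2, ratio 0.689), *Podxl* (0 reads, ratio 0.849), *Tek* (0 reads, ratio 0.768), *Tie1* (0 reads, ratio 0.806), *Eng* (level 160.2, ratio 0.796), *Ptprb* (0 reads, ratio 0.707) and *Sox17* (0 reads, ratio 0.747). The next WT-GFP samples were at 97.7 for *Ptprb* to 684 for *Eng*. *Abcg2* was low in WT-GFP sample 3 (level 42.4, next 864, ratio 0.778).

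WT-GFP sample 2 was high for *Rasip1* (level 963, next 360.2, ratio 0.613) and *Egfl7* (level 6336, next 1563, ratio 0.581). In APP-SOCS3 astrocytes, sample 1 was high for *Egfl7* (level 646, next 189, ratio 0.758) and *Sox17* (level 361, next 69.6, ratio 0.789), and sample 2 was high for *Slc7a5* (level 4922, next 2811, ratio 0.773). *Vwf* was low in APP-SOCS3 sample 5 (0 reads, next 54.1, ratio 0.722), and *Tm4sf1* in APP-SOCS3 sample 3 (level 454, next 940.4, ratio 0.737).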

How the results depend on the processing

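The count of genes called lower in WT-GFP astrocytes than in GFP- cells was 33 to 36 under all alternatives. Between APP-GFP and WT-GFP it was 0 in the main analysis, 1 with edgeR, 1 with DESeq2, 0 to 2 when 1 sample was left out, 2 without the GFP+ samples with under 20000 genes detected, and 0 under the other alternatives. In that last sample set *Abcg2* (0.26 on the log2 scale with all samples) was at -0.93 and called lower in APP-GFP, and the cause was not tested. In APP-SOCS3 compared to APP-GFP and to WT-GFP, counts were 0 when an adjusted *p* under 0.05 was asked of limma, a stricter threshold that 17 and 18 genes passed with DESeq2 and 0 with edgeR. They were 22 to 30 and 23 to 30 when 1 sample was left out, and 22 to 29 and 22 to 30 under the other alternatives. In APP-SOCS3 compared to APP-GFP, 1 of the calls was *Erg*, higher, without APP-SOCS3 sample 2, 4 or 5 and with no minimum level, and all other calls were lower. The level of APP-SOCS3 astrocytes as percent of GFP- cells was 2.11% as a median and 11.2% as a mean over genes. Counting each gene under each alternative, 63 values in APP-SOCS3 compared to APP-GFP and 58 in APP-SOCS3 compared to WT-GFP lost their call. In the same order, 17 and 21 values gained one. The adjusted *p* of limma, under which all calls were lost, accounts for 27 of the 63 and 26 of the 58. Sign changes of values that were never called were not counted.

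Same-numbered samples of different groups did not deviate together (correlations of -0.18 to 0.24), so the numbers were not taken as pairs. With the replicate block, 35, 0, 22 and 22 genes were called in the 4 comparisons, in the order of the report. With 3 to 7 samples per group and genes at 0 reads in some samples, small changes of junction and receptor genes were not detectable, and levels under 3 reads cannot be told from 0.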
